A study of Mus musculus with 18 samples.

Results

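Hearts of sham-operated Kcp knockout mice were compared with hearts of sham-operated wild-type mice across all measured genes. The members were 7 of the 18 libraries of the series: wild-type sham replicates 1 to 4 and knockout sham replicates 1, 3 and 4. The fit did not use knockout sham replicate 2, whose library name combines the names of replicates 3 and 4, and its values are given separately. All mice were labelled C57, and the groups differed in genotype (wild type or KCP knockout) and in surgery (sham, or transverse aortic constriction, TAC). A sham operation is surgery without the aortic band, and TAC narrows the aorta so that the left ventricle pumps against a raised pressure. The TAC libraries, 5 wild type and 5 knockout, served as a second comparison of the genotypes. The sham differences do not use them, but the sham standard errors, p-values and gene filter do, since all 4 groups share 1 fit. Age, sex, the time after surgery, the substrain, the exons removed from Kcp and the breeding of the 2 genotypes were not stated in the labels. Nor is it stated that the libraries are from different mice, and the p-values then reflect only how far these libraries spread, which may be technical.

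KCP, kielin/chordin-like protein, is secreted, has cysteine-rich domains, enhances signalling by bone morphogenetic proteins (BMPs) and restrains signalling by TGF-beta and activin. BMPs act through receptors that phosphorylate Smad1, Smad5 and Smad8, and TGF-beta through Smad2 and Smad3, the route known for inducing matrix genes in the injured heart. The adult heart draws most of its ATP from the oxidation of fatty acids in mitochondria. The title of the series names p53, p21 and cyclin B1 as the route it examined in the loaded heart, and the sham groups show the genotypes without that load.

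The values were treated as FPKM, which scales the fragments of a gene to its length and to the size of the library. Differences are means of log2(FPKM + 1) in knockout minus wild type, with a standard error from limma, and adjusted p-values are from limma with Benjamini-Hochberg adjustment over 11937 tested genes. A gene was called at an adjusted p under 0.05. Across the 18 libraries the FPKM values summed to between 390453 and 432264, and 11027 to 11377 genes reached 1 FPKM. The 10 ventricular cardiomyocyte markers summed to 57897 to 60057 FPKM in wild-type sham and to 58856 to 62630 in knockout sham. The 8 genes of thymus and lung, organs that border the heart, summed to at most 0.667 FPKM in any sham library.

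Kcp itself was low in both genotypes. Wild-type sham had 0.794, 1.43, 0.888 and 1.02 FPKM, and knockout sham replicates 1, 3 and 4 had 0.666, 0.673 and 0.655. Each wild-type library lay above each knockout library, and the knockout mean was 64.4% of the wild-type mean. The difference was -0.28 ± 0.12 and did not pass (limma adjusted p = 0.301). An exact 2-sided permutation test over the 7 libraries gave p = 0.0571, where 0.0286 is the smallest p that 35 arrangements allow. RNA assigned to Kcp was therefore present in each library labelled knockout, and a total over the gene cannot show whether a part of it was deleted. Genes that start within 5 Mb of Kcp on chromosome 6 had 0 calls among 41 tested, with a median difference of 0.00, and 3 had an unadjusted p under 0.05. Within 20 Mb there were 0 calls among 129 tested, and 11 had an unadjusted p under 0.05.

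Between the sham groups 151 of 11937 genes were called (1.26%), 77 higher in knockout (0.645%) and 74 lower (0.62%), while 1694 had an unadjusted p under 0.05. The largest differences were falls: of 24 called genes with a difference of at least 1 on the log2 scale, 18 were lower in knockout. In the 151 genes the knockout and wild-type sham libraries did not overlap. Such separation held for 1841 of all tested genes (15.4%). Knockout sham replicate 2, outside the fit, lay on the knockout side of the midpoint between the group means for 129 of the 151.

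**Figure D1:**
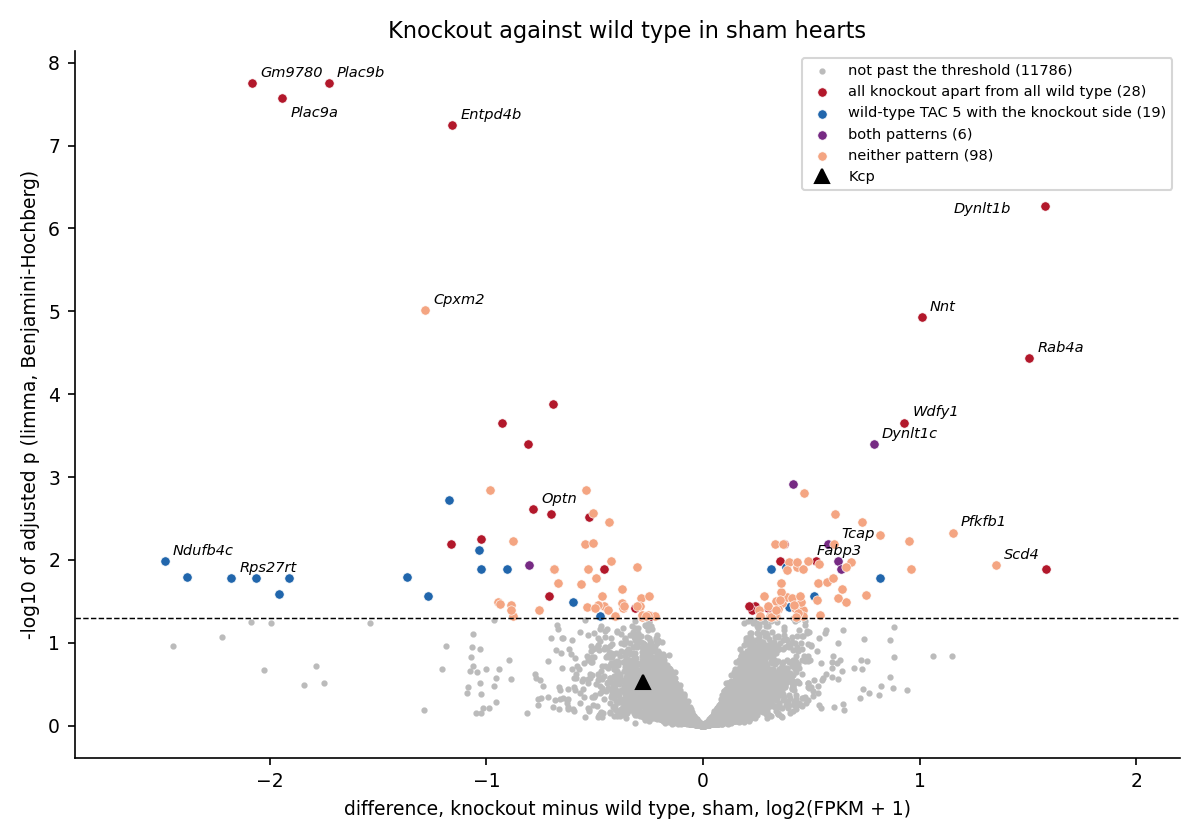
Each point is 1 of 11937 tested genes, with the difference between knockout and wild-type sham hearts on log2(FPKM + 1) on the horizontal axis and -log10 of the adjusted p on the vertical axis; the dashed line is the threshold of 0.05. Colours give the pattern over all libraries described in the text, and Kcp, the triangle, lies below the line while Plac9a, Nnt, Dynlt1b, Rab4a and Cpxm2 stand far above it.

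The libraries divided in a second way that follows the genotype in sham without exception. Ndufb4c, annotated as a copy of a complex I subunit gene, was at 47.8, 46.3, 40.7 and 49.4 FPKM in wild-type sham and at 7.19, 7.39 and 7.59 in knockout sham. After TAC wild-type replicates 1 to 4 had 38.8, 38.7, 35.9 and 38.4 FPKM, but wild-type replicate 5 had 7.02, inside the range of the knockout TAC libraries (4.47 to 8.08). Of the 151 called genes, 19 had this pattern, with wild-type TAC replicate 5 among the knockout libraries and the other 8 wild-type libraries apart from them (14 lower and 5 higher in knockout). In 28 others all 9 wild-type libraries stood apart from all 8 knockout libraries in the fit (16 lower and 12 higher), 6 had both patterns, and 98 had neither. Over all tested genes, those with both patterns included, the first separation held for 54 (0.452%) and the second for 55 (0.461%). All wild-type sham libraries fall on one side of the split and all knockout sham libraries on the other, so in sham the split and the genotype cannot be told apart. The split was placed at the largest gap in the level of Ndufb4c, and a fit with it as a term rests on wild-type TAC replicate 5 alone. It called 12 genes, 8 of them among the 151: Plac9a, Plac9b, Gm9780, Entpd4, Entpd4b, Dynlt1b, Wdfy1 and Cpxm2. The other calls among the 151 did not pass in that fit.

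The genes with the smallest adjusted p were copies of one another in a block of chromosome 14. Plac9a and Plac9b encode a small secreted protein first described in placenta. In wild-type sham Plac9a had 11.8, 17.9, 16.6 and 15.6 FPKM, and in knockout sham 3.34, 3.73 and 2.73, with 3.43 in replicate 2. Every knockout library was below every wild-type library, and the difference was -1.94 ± 0.12 (limma adjusted p = 2.67e-08). After TAC wild type had 16.8 to 20.7 FPKM and knockout 4.25 to 5.69, a difference of -1.75 ± 0.10 (limma adjusted p = 6.29e-09). Plac9b (-1.73 ± 0.10) and Gm9780 (-2.08 ± 0.13), a gene model chosen here after its values were seen, fell by similar amounts.

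These names share their sequence. The first 240 bases of the Plac9a coding sequence are shown because the whole of it, 327 bases, is identical in Plac9b and Gm9780, so reads from it cannot be assigned to 1 of the 3 and their separate values are uncertain. They are from GENCODE M21 (GRCm38), transcript Plac9a-201 at chr14:25887506-25903100 on the minus strand, with no capitals since no base differs.
Plac9a: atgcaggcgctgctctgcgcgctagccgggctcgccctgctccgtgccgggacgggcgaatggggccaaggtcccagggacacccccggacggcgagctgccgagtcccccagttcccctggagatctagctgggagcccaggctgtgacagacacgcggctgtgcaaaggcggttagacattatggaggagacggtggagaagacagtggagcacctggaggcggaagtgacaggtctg
Summed over the 3 copies, wild-type sham had 31.8, 45.1, 41.1 and 41.3 FPKM and knockout sham 8.56, 8.93 and 7.10, which is 20.6% of the wild-type mean. The sum was thus as far apart as the single names, with no overlap. In the stretch of chromosome 14 around them, 6 of 8 tested genes were called, all lower: these 3 and Tmem254a, Tmem254b and Tmem254c, membrane protein genes whose coding sequences are also identical to one another. The other 2, Zcchc24 (-0.12) and Anxa11 (-0.12), were not called.

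A second block of chromosome 14 held Entpd4 and Entpd4b, which encode a nucleotide-hydrolysing enzyme of the Golgi and lysosome and share 1842 of 1842 coding bases. Their summed level was 74.7, 79.0, 75.1 and 72.7 FPKM in wild-type sham and 38.7, 34.6 and 37.1 in knockout sham, 48.8% of the wild-type mean. Knockout sham replicate 2 was at 36.4, and after TAC wild type had 51.5 to 73.7 and knockout 31.3 to 35.4 FPKM, so no library crossed. Separately, Entpd4b fell by 1.16 and Entpd4 by 0.81 on the log2 scale. Chromosome 14 as a whole had 13 calls, 3% of its tested genes, 11 of them lower. Of the 151 called genes, 36 had another called gene that starts within 500000 bases. The same count was not made for all tested genes, so 36 cannot be called many or few. The 36 include the copies of these blocks and other related names, such as Acot1 and Acot2.

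Nnt encodes nicotinamide nucleotide transhydrogenase, the enzyme of the inner mitochondrial membrane that makes NADPH from NADH. It was at 150.3, 138, 138 and 144 FPKM in wild-type sham and at 273, 327 and 267 in knockout sham, with 294 in replicate 2. The knockout mean was 2.03 times the wild-type mean (1.01 ± 0.10, limma adjusted p = 1.18e-05). After TAC it was 92.1 to 134 FPKM in wild type and 176 to 196.5 in knockout (0.75 ± 0.08, limma adjusted p = 3.4e-05). Every knockout library of either surgery was above every wild-type library, and 1 of 9 tested genes in the region of chromosome 13 around Nnt was called, Nnt itself. Nnt was also the only one called among 26 tested genes of mitochondrial NADPH and antioxidant defence. The C57BL/6J substrain is known to carry a deletion within Nnt that other C57 lines lack, and the labels do not say which substrain either genotype has. The part of this in the difference was not tested. In the fit with the library split as a term Nnt was at 0.66 (limma adjusted p = 0.18).

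Among other genes that separated every wild-type from every knockout library, Rab4a, a small GTPase of endosome recycling, had 2.66, 2.51, 4.50 and 2.85 FPKM in wild-type sham and 9.29, 10.95 and 11.5 in knockout sham (1.504 ± 0.16, limma adjusted p = 3.7e-05). After TAC the difference of Rab4a was 1.499 ± 0.13. Wdfy1, an endosomal adaptor gene, rose by 0.93 ± 0.11 in sham and by 1.13 ± 0.09 after TAC. Optn, which encodes the autophagy receptor optineurin, fell by 0.79 in sham and by 0.50 after TAC, and Scgb1c1, a secretoglobin gene, fell by 1.03 and 1.30. No gene of this pattern had a call for the interaction of genotype and surgery, which 0.93% of tested genes had. Since the pattern was defined on the TAC libraries as well, neither their calls after TAC nor the lack of interaction calls is separate support.

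**Figure D2:**
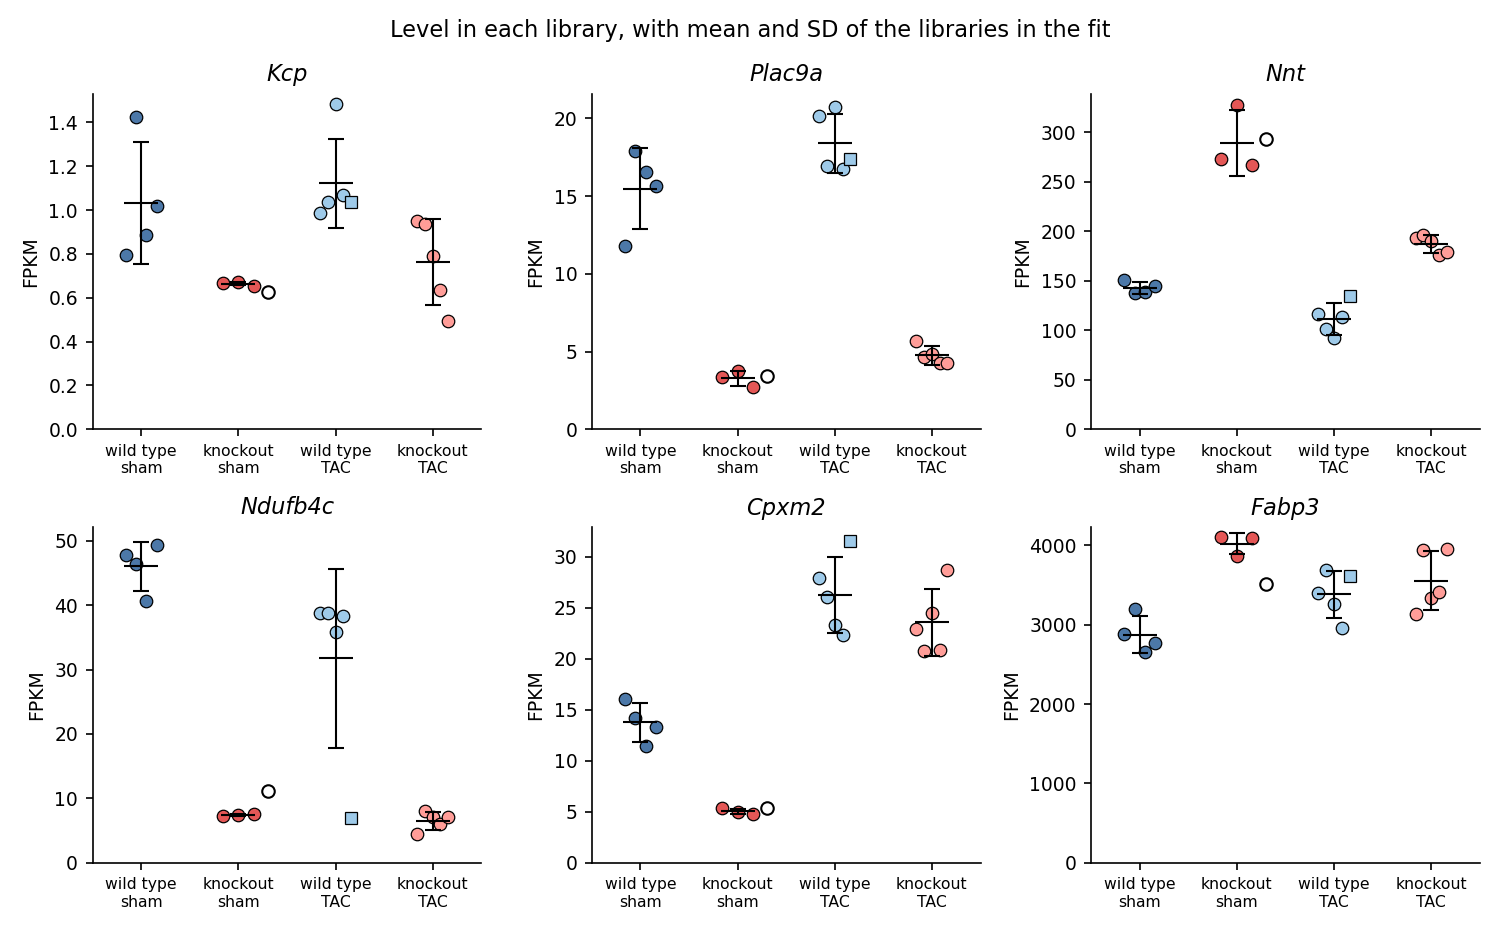
FPKM of 6 genes in each library of the 4 groups, with the mean and SD of the libraries in the fit; the open circle is knockout sham replicate 2, outside the fit, and the square is wild-type TAC replicate 5. Plac9a and Nnt separate the genotypes under both surgeries, Ndufb4c has the square at the knockout level, and Cpxm2 and Fabp3 separate in sham and overlap after TAC.

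Dynlt1b and Dynlt1c encode a light chain of the dynein motor and lie on chromosome 17. The first 120 bases of their coding sequences are shown because the whole sequences differ at 1 of 342 bases, base 21, marked by a capital in Dynlt1c, and reads can rarely be assigned to 1 of them, so their separate values are uncertain; both are from GENCODE M21 (GRCm38), Dynlt1b-201 at chr17:6430112-6436296 and Dynlt1c-201 at chr17:6601671-6609679, plus strand.
Dynlt1b: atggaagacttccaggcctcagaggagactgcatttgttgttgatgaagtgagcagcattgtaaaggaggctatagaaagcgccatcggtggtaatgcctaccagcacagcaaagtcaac
Dynlt1c: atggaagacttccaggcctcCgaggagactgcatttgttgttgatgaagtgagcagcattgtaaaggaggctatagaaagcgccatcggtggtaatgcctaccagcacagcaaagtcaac
Dynlt1b had 3.54, 3.504, 3.13 and 3.88 FPKM in wild-type sham and 11.6, 11.6 and 14.3 in knockout sham, the largest rise among the genes named by rule (1.58 ± 0.12, limma adjusted p = 5.4e-07). Dynlt1c rose by 0.79 ± 0.10. With Dynlt1f, which also differs from Dynlt1b at 1 base, the summed level was 13.1 to 17.6 FPKM in wild-type sham and 31.1 to 35.1 in knockout sham, so the sum separated the groups as well.

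Copies of ribosomal and mitochondrial genes carried the library split. The first 240 bases of the coding sequence of Ndufb4, a membrane-arm subunit of complex I, are shown because all 390 bases are identical in Ndufb4c, the gene with the largest fall. They are from GENCODE M21 (GRCm38), transcript Ndufb4-201 at chr16:37647170-37654453 on the minus strand, in lower case throughout.
Ndufb4: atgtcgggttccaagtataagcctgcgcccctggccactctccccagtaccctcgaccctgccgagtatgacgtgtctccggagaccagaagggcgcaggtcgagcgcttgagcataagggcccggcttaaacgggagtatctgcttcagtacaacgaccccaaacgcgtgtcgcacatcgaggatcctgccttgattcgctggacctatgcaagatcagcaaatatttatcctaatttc
Ndufb4c fell by 2.49 ± 0.43 (limma adjusted p = 0.0103) while Ndufb4 rose by 0.36 ± 0.07 (limma adjusted p = 0.0192). The sum of Ndufb4, Ndufb4b and Ndufb4c was 614, 620, 585 and 615 FPKM in wild-type sham and 625, 665 and 687 in knockout sham. The knockout sum was 108% of the wild-type sum, with 558 in replicate 2, below each wild-type library. Rps27rt, whose coding sequence is identical to that of the ribosomal gene Rps27, had 31.3, 35.9, 24.9 and 37.1 FPKM in wild-type sham and 6.46, 6.12 and 6.24 in knockout sham. Rps27 with Rps27rt summed to 462 to 500.2 FPKM in wild-type sham and to 393 to 495 in knockout sham, which overlapped. Rpl37rt, 293 of 294 bases identical to Rpl37, and Rps23rg1, a retrogene of Rps23, fell by 2.07 and 1.27 in the same libraries. Rpl37 with Rpl37rt summed to 110 to 118 FPKM in wild-type sham and to 95.3 to 104 in knockout sham, 87.4% of the wild-type mean, without overlap. Leaving out knockout sham replicate 3 ended the calls of Ndufb4c, Ndufb4b, Rps27rt, Rpl37rt and Rps23rg1 (limma adjusted p of 0.0519 to 0.115) with little change in their differences. The last 4 also lost them without knockout sham replicate 1 or 4 (limma adjusted p of 0.0501 to 0.106), Ndufb4b and Rps23rg1 without wild-type sham replicate 1 or 2 (0.0523 to 0.069), and Rps23rg1 without wild-type sham replicate 4 (0.0618). With the split as a term Ndufb4c was at -0.21, and Ndufb4b (0.19), Rpl37rt (0.0857) and Rps23rg1 (0.0939) turned above 0. The split was placed on Ndufb4c, and the others were grouped by the level of wild-type TAC replicate 5, which alone sets the term. Their small differences in that fit were therefore fixed in advance and are no separate support. Of the 135 called genes with a value, 19 shared at least 50% of their 31-base stretches with another gene (14.1%), against 337 of 11557 tested genes (2.92%). Among 63 lower genes the count was 13 and among 72 higher genes 6.

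Rps10, a ribosomal protein gene of chromosome 17, followed the same split with a larger level. It had 47.0, 53.7, 58.9 and 66.9 FPKM in wild-type sham, 26.2, 24.2 and 30.7 in knockout sham, and 30.1 in wild-type TAC replicate 5, where wild-type TAC replicates 1 to 4 had 50.4 to 59.0. Gapdh, the glycolytic enzyme gene often used as a reference, was also of this pattern, at 2407, 2304, 2345 and 2524 FPKM in wild-type sham and 3171, 3068 and 3208 in knockout sham (0.40 ± 0.09, limma adjusted p = 0.0367). Its level in wild-type TAC replicate 5 was 3458, above the 2443 to 2828 of the other wild-type TAC libraries. Rps10 lost its call without knockout sham replicate 3 (limma adjusted p = 0.0519), and Gapdh kept its call only without wild-type sham replicate 4 (limma adjusted p of 0.091 to 0.126 in the other such fits). Of the 56 tested ribosomal protein genes on the list 1 rose (Rpl15) and 2 fell (Rps10 and Rps27rt), with a list median of 0.06 beside -0.01 for all tested genes. Outside the list, and chosen after their values were seen, Rps23 (0.21 ± 0.05) and Fau (0.38 ± 0.06), which encodes ribosomal protein S30, rose as well. Rps23 kept its call only without wild-type sham replicate 4 among the fits that left out 1 sham library (limma adjusted p of 0.0899 to 0.126 in the others). With knockout sham replicate 2 in the fit it was at 0.16 (limma adjusted p = 0.145). Rpl15 was not called without knockout sham replicate 3 or 4 (limma adjusted p of 0.0563 and 0.0666).

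Cpxm2, a secreted protein of the carboxypeptidase family without known enzyme activity, had 16.1, 14.2, 11.5 and 13.4 FPKM in wild-type sham and 5.35, 4.94 and 4.82 in knockout sham, with 5.39 in replicate 2. The groups lay far apart (-1.28 ± 0.12, limma adjusted p = 9.76e-06). After TAC wild type had 22.4 to 31.6 FPKM and knockout 20.7 to 28.7, which overlapped (-0.15 ± 0.10, limma adjusted p = 0.375). The difference in TAC minus that in sham was 1.13 (interaction, limma adjusted p = 0.0096). Cpxm2 kept its call with the library split as a term (-1.62, limma adjusted p = 0.00065). Of 7 carboxypeptidase-like genes tested, 2 fell, Cpxm2 and Cpm, the latter a membrane carboxypeptidase gene (-0.37 ± 0.08). The call of Cpm was kept only without wild-type sham replicate 3 among the 7 fits that left out 1 sham library, with limma adjusted p of 0.0563 to 0.139 in the others.

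Pfkfb1, which encodes an enzyme that sets the level of fructose 2,6-bisphosphate and so the rate of glycolysis, was at 7.78, 8.88, 8.59 and 7.26 FPKM in wild-type sham and 18.6, 21.6 and 17.7 in knockout sham (1.15 ± 0.19, limma adjusted p = 0.00468). After TAC both genotypes were at 1.997 to 4.83 FPKM and the difference was -0.02 (interaction -1.17, limma adjusted p = 0.0364). Scd4, a stearoyl-CoA desaturase gene, rose from 0.846 to 2.16 FPKM in wild-type sham to 3.95 to 5.99 in knockout sham (1.35 ± 0.25), a call that was lost without knockout sham replicate 1 (1.21, limma adjusted p = 0.0609). Its interaction was not called (-0.83, limma adjusted p = 0.179). Scand1, a SCAN-domain gene, had 24.7, 28.9, 25.5 and 34.3 FPKM in wild-type sham and 41.5, 56.9 and 53.9 in knockout sham (0.82 ± 0.16), and was called after TAC too (0.53). Its sham call was lost without wild-type sham replicate 1 or 3 or knockout sham replicate 3 or 4 (limma adjusted p of 0.0608 to 0.0961). Lrmda, a gene of melanocyte differentiation, had 1.95, 0.896, 2.77 and 1.07 FPKM in wild-type sham and 0.18, 0 and 0.276 in knockout sham (-1.16 ± 0.20), was lower after TAC (-0.77), and lost its sham call without knockout sham replicate 3 (-1.07, limma adjusted p = 0.0511). Sbk3, a striated muscle kinase gene, and Acot1, an acyl-CoA thioesterase gene, were higher in knockout sham (0.75 and 0.66) and lower in knockout TAC (-0.55 and -0.42), with a call in each comparison. Acot1 kept its sham call only without wild-type sham replicate 1 or 2 (limma adjusted p of 0.0787 to 0.108 in the other 5 such fits). Sbk3 lost it without wild-type sham replicate 1 or knockout sham replicate 1 or 3 (limma adjusted p of 0.0521 to 0.126).

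**Figure D3:**
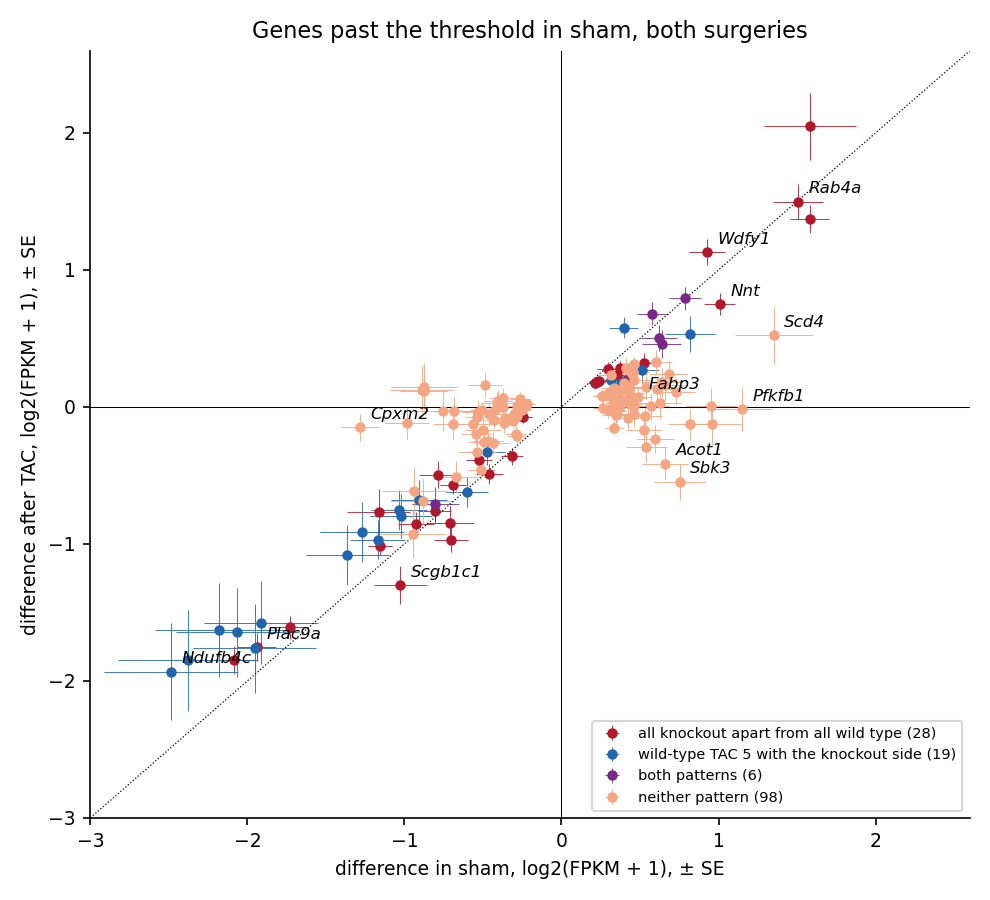
The 151 genes called in sham, with their difference in sham on the horizontal axis and after TAC on the vertical axis, both on log2(FPKM + 1) with SE bars; the dotted line marks equal differences. Genes that separate all libraries and genes of the library split lie near the dotted line, while most of the 98 genes with neither pattern, among them Cpxm2, Pfkfb1 and Fabp3, lie near 0 after TAC.

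In the TAC comparison, where 1350 genes were called (11.3%), 123 of the 151 had the same direction as in sham and 63 had the same direction and a call. Over all tested genes the same direction was found for 50.5% and the same direction with a TAC call for 6.42%. The library split runs through the TAC groups as well, with only wild-type TAC replicate 5 on the knockout side. The genotype and the split are therefore nearly the same there, and the agreement does not tell them apart. Of the 63 genes, 27 separated all libraries, 17 had the split pattern and 6 had both, patterns defined on the TAC libraries too. Of the 98 genes with neither pattern 13 were called after TAC in the same direction, and 3 were called in the opposite one, Acot1, Sbk3 and Agpat3, the last a phospholipid acyltransferase gene. The interaction was called for 111 genes in all, positive in 0.377% and negative in 0.553% of tested genes, and 17 of the 111 were among the 151, each with neither pattern. Either pattern asks for the same separation under both surgeries, which by itself works against an interaction call.

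Most genes of fatty acid use lay above 0 in knockout against wild-type sham hearts. Of 30 tested members 3 rose, 0 fell, and 29 had a difference above 0, with a median of 0.23 beside -0.01 for all tested genes, of which 5669 (47.5%) were above 0. Fabp3, the fatty acid binding protein of heart muscle, had 2882, 3200, 2656 and 2768 FPKM in wild-type sham and 4103, 3867 and 4095 in knockout sham (0.49 ± 0.09, limma adjusted p = 0.0102), with 3510 in replicate 2. All 4 knockout libraries were above all 4 wild-type libraries, and after TAC the groups overlapped (0.07 ± 0.07). The interaction of Fabp3 was not called (-0.42, limma adjusted p = 0.0751). The mitochondrial thioesterase Acot2 rose by 0.53 ± 0.11 and the cytosolic Acot1 by 0.66 ± 0.15, and these closely related genes summed to 28.6 to 39.4 FPKM in wild type and 49.7 to 51.2 in knockout. Acot2 lost its call without wild-type sham replicate 3 or any 1 of the knockout sham libraries (limma adjusted p of 0.0662 to 0.0753). Not called, and chosen after their values were seen, were Hadhb (0.31), of the trifunctional protein, Slc25a20 (0.30), the carnitine carrier, and Cpt1b (0.21), the muscle carnitine transferase. Lpl, the lipase that frees fatty acids from blood lipids, was the only member below 0 (-0.78, not called). The mean of the list was 7.08 to 7.24 on log2(FPKM + 1) in wild-type sham and 7.39 to 7.45 in knockout sham, with 7.34 in replicate 2. After TAC the median of the list was -0.09, with 1 member higher and 5 lower, where 6.53% and 4.78% of tested genes were called in these directions.

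Most genes of the respiratory chain lay above 0 as well. Of 37 complex I genes 3 rose (Ndufb4, Ndufab1, Ndufs8), 0 fell, and 33 were above 0 with a median of 0.14. Over all tested genes 0.645% were called higher and 47.5% were above 0. Ndufb4 shares its coding sequence with Ndufb4c, so its separate value is uncertain. The sum of Ndufb4, Ndufb4b and Ndufb4c was 108% of the wild-type sum. Ndufab1, the acyl carrier protein of mitochondria, had 573, 566, 517 and 581 FPKM in wild-type sham and 679, 722 and 742 in knockout sham, and 601 in replicate 2 (0.35 ± 0.08, limma adjusted p = 0.0307). With replicate 2 in the fit Ndufab1 was at 0.29 (limma adjusted p = 0.064), and Ndufb4 at 0.30 (limma adjusted p = 0.051). Ndufab1 and Ndufs8 kept their calls only without wild-type sham replicate 4 among the fits that left out 1 sham library, with limma adjusted p of 0.0515 to 0.161 in the others. Ndufb4 lost its call without wild-type sham replicate 3 or knockout sham replicate 3 or 4 (limma adjusted p of 0.069 to 0.0968). Of 36 genes of complexes II to V none was called, 27 had an unadjusted p under 0.05, 34 were above 0 and the median was 0.18, led in p by Cox5b (0.25 ± 0.06, limma adjusted p = 0.0658), which passed without knockout sham replicate 1 (0.32, limma adjusted p = 0.0354). Their list mean was 9.62 to 9.75 in wild-type sham and 9.77 to 9.92 in knockout sham, but 9.66 in knockout sham replicate 2, inside the wild-type range. For 17 genes of the tricarboxylic acid cycle the median was 0.11 with 0 calls and 6 at an unadjusted p under 0.05. After TAC the medians of the complex I, complex II to V and tricarboxylic acid lists were -0.10, -0.10 and -0.11.

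Transcript length moved with these differences. Across tested genes, which are not independent replicates, the sham difference had Spearman rho = -0.17 with transcript length, and the TAC difference had -0.00. Median transcript length was 1214 bases in the higher called genes, 1950 in the lower and 2082 in all. By library the correlation of deviation with length was 0.18 and 0.16 in wild-type sham replicates 1 and 3 and -0.17 and -0.14 in knockout sham replicates 3 and 4, and it lay between -0.07 and 0.09 in the other 4 sham libraries. With the length trend removed from each library, 118 of 135 called genes with a length were called again, and the medians of fatty acid use, complex I and complexes II to V were 0.26, 0.11 and 0.15.

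**Figure D4:**
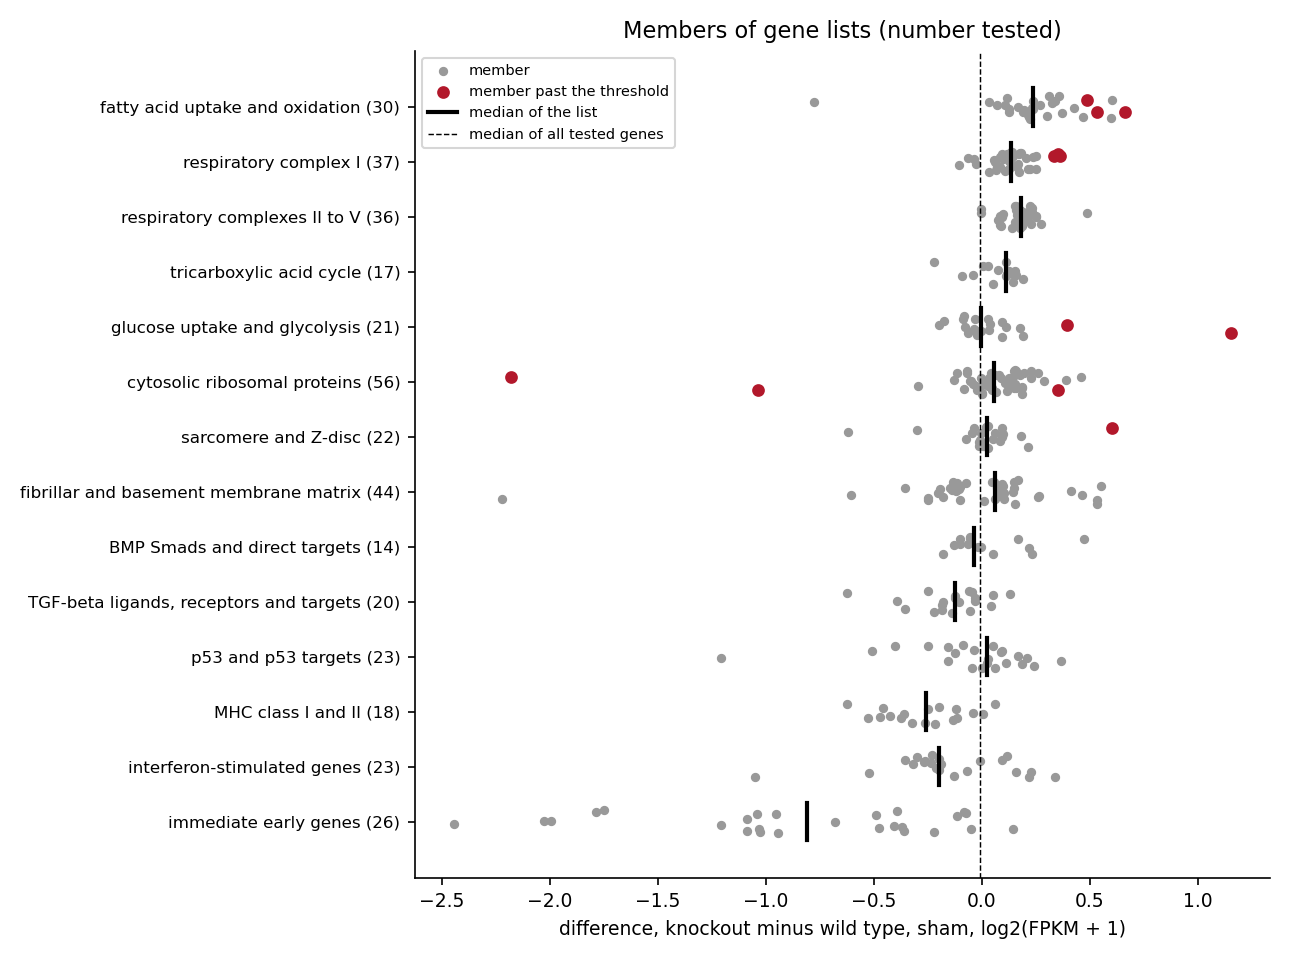
Differences between knockout and wild-type sham hearts on log2(FPKM + 1) for members of 14 gene lists, with the number tested in brackets; red points passed the threshold, the bar is the list median and the dashed line the median of all tested genes. Fatty acid and respiratory genes lie mostly right of the line and immediate early genes left of it, few of them called.

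Immediate early genes, transcription factors induced within minutes by stress or stimulation, had a median of -0.81, the lowest of the pathway lists, with 25 of 26 tested members below 0 and 0 calls (12 at an unadjusted p under 0.05). Fos had 45.8, 8.67, 101 and 4.75 FPKM in wild-type sham and 7.97, 5.68 and 4.16 in knockout sham. Egr1 had 112, 24.4, 135 and 13.1 against 14.7, 15.3 and 5.58. Both genes, chosen after their values were seen, were high in wild-type replicates 1 and 3 and at knockout levels in replicate 4. The list mean was 4.56, 4.11, 4.58 and 3.28 in wild-type sham replicates 1 to 4 and 3.23 to 3.36 in knockout sham, so replicate 4 overlapped the knockout. Egr3 was at 7.83, 4.72, 6.92 and 0.401 FPKM in wild type and 0.157 to 0.27 in knockout (-1.995 ± 0.48, limma adjusted p = 0.0572) and passed with knockout replicate 2 in the fit (limma adjusted p = 0.024). Without wild-type replicate 4 the median was -1.06 and 3 members were called lower.

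**Figure D5:**
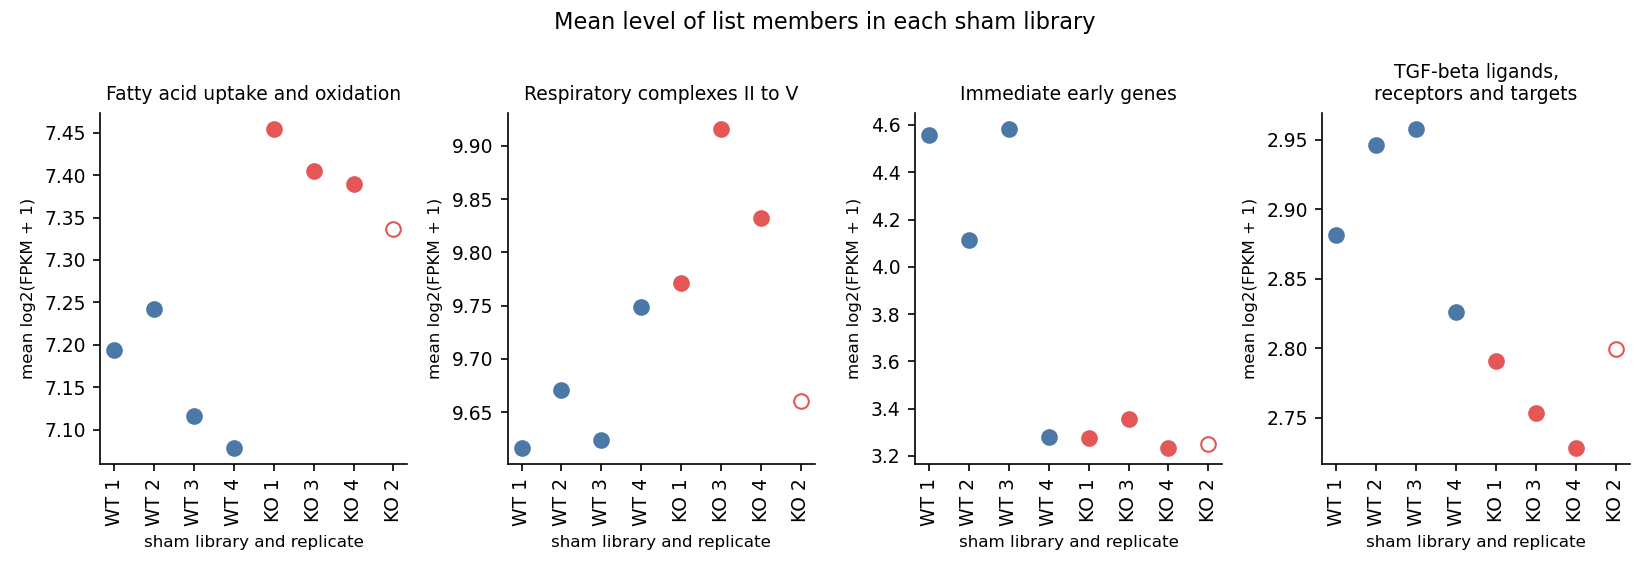
Mean log2(FPKM + 1) of the tested members of 4 gene lists in each sham library, wild type in blue and knockout in red, with knockout replicate 2, outside the fit, as an open circle. Fatty acid genes separate the groups, complexes II to V do so without replicate 2, and immediate early genes are high in wild-type replicates 1 to 3.

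Members of the signalling routes that KCP is known to act on were not called in sham in the fit of all 4 groups. Over all tested genes 1.26% were called, so 0 calls in lists of this size say little about these routes. Of 20 TGF-beta ligands, receptors and targets 0 were called and 17 were below 0, with a median of -0.13 and 1 at an unadjusted p under 0.05. Of all 11937 tested genes 6268 were below 0 and 1694 had an unadjusted p under 0.05. Their list mean was 2.83 to 2.96 in wild-type sham and 2.73 to 2.79 in knockout sham. Tgfb1, the ligand, was at 14.1 to 16.4 FPKM in wild type and 12.2 to 15.6 in knockout, which overlapped. Ccn2, a matricellular target, was at 32.1, 37.3, 37.6 and 34.1 FPKM in wild type and 20.8, 19.1 and 28.6 in knockout (-0.63 ± 0.37, limma adjusted p = 0.48). The groups did not overlap, and Ccn2 passed in the fit of the 2 sham groups alone (limma adjusted p = 0.0447).

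Of 14 BMP Smads and direct targets 0 were called, beside 1.26% of all tested genes. Their median was -0.03, with 1 member at an unadjusted p under 0.05. Smad6, the inhibitory Smad that BMP induces, was at 3.07, 3.06, 3.76 and 3.47 FPKM in wild-type sham and 5.35, 5.15 and 4.54 in knockout sham, with 4.90 in replicate 2. The 4 knockout libraries were above the 4 wild-type libraries, but the difference of 0.47 ± 0.12 did not pass (limma adjusted p = 0.0552). It passed with replicate 2 in the fit (limma adjusted p = 0.025), in the fit of the 2 sham groups (limma adjusted p = 0.038) and with median-ratio scaling (limma adjusted p = 0.042). In TAC hearts Smad6 was at 3.42 to 4.13 FPKM in wild type and 4.30 to 7.09 in knockout. It was called there (0.35 ± 0.10, limma adjusted p = 0.0258). Smad6 had both patterns described above, the separation of all libraries by genotype and the library split. Id1, another BMP target, was at 47.0 to 53.3 FPKM in wild type and 39.1 to 55.5 in knockout. Bmp7, a ligand that KCP binds, was under the filter at 0.635 to 0.907 FPKM in wild type and 0.379 to 0.593 in knockout. Of 19 ligands, receptors and modulators of BMP that were tested, 11 others being too low, none was called (1 at an unadjusted p under 0.05).

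Genes of the route in the series title did not separate the sham groups. Trp53 was at 9.53, 10.7, 10.5 and 10.7 FPKM in wild type and 9.52, 12.6 and 8.53 in knockout. Cdkn1a, which encodes p21, was at 6.65, 12.2, 11.02 and 6.87 in wild type and 6.83, 6.24 and 23.05 in knockout, high in replicate 4. Ccnb1 was under the filter, at 0 to 0.20 FPKM in wild type and 0.124 to 0.248 in knockout (exact permutation test, p = 0.257). Of 23 p53 genes and 15 G2/M genes 0 were called, with 3 and 1 at an unadjusted p under 0.05 and medians of 0.02 and -0.08. With 1.26% of all tested genes called, 0 calls in lists of this size say little.

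Markers of cardiac stress and matrix were not called in the fit of all 4 groups, and some passed in other fits. Nppb, which encodes the natriuretic peptide BNP, was at 144, 90.4, 138 and 131 FPKM in wild-type sham and 54.4, 41.1 and 70.2 in knockout sham, with 47.7 in replicate 2. The groups did not overlap, but the difference of -1.18 ± 0.33 did not pass (limma adjusted p = 0.109). With replicate 2 in the fit Nppb passed (-1.23, limma adjusted p = 0.0482). Nppa was at 128, 89.3, 267 and 150.2 FPKM in wild type and 83.3, 95.5 and 112 in knockout. Myh7, the slow myosin heavy chain of the stressed mouse heart, was at 180.2 to 195 FPKM in wild type and 140.5 to 149 in knockout, without overlap (-0.38 ± 0.41). Of 14 fetal and stress genes 0 were called, 10 were below 0, and the median was -0.32, with 2 at an unadjusted p under 0.05. A list of this size would hold few calls or none at the 1.26% called over all tested genes. The fibrillar collagens Col1a1 (6.46 to 7.62 FPKM in wild type, 9.98 to 10.2 in knockout) and Col3a1 (13.1 to 17.2 and 20.9 to 23.9) did not overlap between the groups and did not pass (0.46 ± 0.26 and 0.53 ± 0.27). The fit shares 1 spread over all 4 groups, and the SD of these genes is larger in the TAC groups than in the sham groups. In the fit of the 2 sham groups alone Myh7 (limma adjusted p = 0.00596), Col1a1 (limma adjusted p = 0.0118) and Col3a1 (limma adjusted p = 0.0418) passed, with the same differences. These 2 collagens do not stand for the matrix genes. Of 44 fibrillar and basement membrane matrix genes 0 were called, 25 were above 0 and 19 below, and the median was 0.06. Postn, which encodes periostin, was at 7.73 to 12.6 FPKM in wild type and 6.52 to 7.94 in knockout, which overlapped (-0.36 ± 0.46).

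Sarcomere and calcium genes had 1 call. Tcap, which encodes the Z-disc protein telethonin, had 1130, 1153, 987.5 and 1227 FPKM in wild-type sham and 1617, 1878 and 1624 in knockout sham, and 1615 in replicate 2 (0.60 ± 0.10, limma adjusted p = 0.00638). Without knockout sham replicate 3 it was at 0.53 (limma adjusted p = 0.0519). Tcap was the only one of 22 sarcomere and Z-disc genes called, and 0 of 16 calcium-cycling genes were (2 at an unadjusted p under 0.05). Canx, a chaperone gene of the endoplasmic reticulum, fell by 0.29 ± 0.06, alone among 23 genes of the unfolded protein response. It kept its call only without wild-type sham replicate 4 or knockout sham replicate 4 (limma adjusted p of 0.0677 to 0.116 in the other such fits).

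Immune and cell type markers were measured beside these genes, and in a bulk sample fewer cells of a type and less RNA per cell cannot be told apart. Interferon-stimulated genes summed to 605 FPKM in wild-type sham replicate 3 and to 120 to 173 in the other 6 sham libraries of the fit; their median was -0.20, and 0.04 without that replicate. MHC genes had a median of -0.26, and -0.07 without knockout sham replicate 4, the lowest library. Of 11 smooth muscle and pericyte markers 10 were below 0 (median -0.19), and their sum was 309.5 to 318 FPKM in wild-type sham and 272 to 297 in knockout sham. Rgs5, a pericyte marker among them, passed in the fit of the 2 sham groups alone (-0.30, limma adjusted p = 0.0384). Their part in other results was not tested. None of these genes, and none of the 15 other marker lists, had a call in the fit of all 4 groups. Several of those lists could hardly give a call, because few members were tested. The thymus and lung list had 0 tested members, lymphocytes 1, adipocytes 2, and skeletal muscle, mast cells, Schwann cells with neurons, and mesothelium 3 each. Their lack of calls says little about those cell types. The longer lists would also hold few calls or none at the 1.26% called over all tested genes, so their lack of calls says little as well. At an unadjusted p under 0.05 the interferon, MHC and smooth muscle lists had 0, 1 and 4 members, and the other marker lists 0 to 3.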

How the data were processed

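Total RNA of mouse hearts (RNeasy kit, 1.3 ug a library) was made into 18 libraries with a SMARTER mRNA-Seq kit, per the labels' protocols. The authors deposited 1 table of 34714 genes whose values were read as FPKM: columns sum to 390453 to 432264, hold fractions and carry no unit, so RPKM cannot be told from it. The build is mm10, per the submitters' processing notes. The counter and aligner were not given in the sources used here. Depth is unknown, so no counting interval is given. Genes that reached 1 FPKM in 3 or more of the 17 libraries were fitted as log2(FPKM + 1) over 4 groups with limma 3.58.1 (trend and robust) in R 4.3.3, with Benjamini-Hochberg adjustment at 0.05. A difference on this scale understates the change of low genes. Single genes were also tested by an exact permutation test. Coding sequences, lengths and 31-base overlaps came from GENCODE M21. The members and gene lists were chosen with earlier results of these data known. Named genes were a fixed set, at most 12 of the largest non-overlapping calls per direction (mean of at least 1 FPKM, no unnamed models), and at most 3 genes per list; 1 selected gene is not reported here, and list members selected without a call are printed only in part. Scripts were tested on simulated data. Alternatives covered scaling, pseudocount, filter, samples in the fit and a replicate block.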

Additional observations from a re-analysis of the deposited data

Results flagged for a closer look

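Within the 4 wild-type sham libraries 1 library stood far from the other 3 for 3 genes. Replicate 1 was low for Rpl37rt (12.48 FPKM) and high for Hbb-bs, a beta-globin gene of red blood cells (782.5 FPKM), and replicate 2 was high for Entpd4 (33.95 FPKM). Chance alone gives such a gap in about 1 of 20 groups, and the values of Rpl37rt and Entpd4 still lay on the wild-type side of all knockout sham libraries in the fit.

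For 9 named genes the genotype difference differed between sham and TAC by the interaction in limma with Benjamini-Hochberg adjustment, given as the TAC minus the sham difference on the log2 scale. It was positive for Cpxm2 (1.13) and for Pam (0.57), an enzyme that amidates peptide hormones. It was negative for Pfkfb1 (-1.17), Sbk3 (-1.30), Cntn2 (-1.08), which encodes a contactin of the cardiac conduction system, Acot1 (-1.08) and Prr29 (-0.94). Hspd1 (-0.62), a mitochondrial chaperone gene, and Tnni3 (-0.42), cardiac troponin I, were negative as well, and like Pam they were called after TAC and not in sham. The sham libraries behind the sham calls also enter these interactions.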

How the results depend on the processing

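The 151 sham calls became 227 with knockout sham replicate 2 in the fit and 12 with the library split as a term, and 24 of them had a difference of at least 1 on the log2 scale. Leaving out 1 sham library gave 51 to 147 calls: 86 and 78 without wild-type replicates 1 and 3, and 94, 51 and 74 without knockout replicates 1, 3 and 4. In every such fit 37 of the 151 were called, 21 lower and 16 higher. Each fit's own sham calls that were also called after TAC in the same direction numbered 63, against 11 with the split as a term and 23 to 58 without 1 sham library. Calls among named genes numbered 43, against 8 and 21 to 43.

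Replicate numbers were shared by both genotypes, but the deviations of same-numbered sham libraries correlated at only 0.06, 0.03 and 0.05. No pairing by number was thus seen across all genes, and such correlations cannot show whether the mice were paired. With a replicate block there were 158 calls, 118 of them among the 151. Median-ratio scaling (147), all genes unfiltered (130), a pseudocount of 0.1 (142), no trend or robust moderation (130), the 2 sham groups alone (160) and, chosen after seeing the data, the removed length trend (137) and the fit without wild-type TAC replicate 5 (169) stayed within 1.5 times the count. Kcp kept its direction and stayed uncalled in each alternative (-0.54 to -0.19).

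With the split as a term the direction turned for Trp53 (0.0723), Nppa (0.93), Myh6 (-0.10), Myh7 (0.61), Acta1 (0.75), Postn (1.32), Atp2a2 (-0.21), Rpl37rt (0.0857), Ndufb4b (0.19), Rps23rg1 (0.0939), Pam (0.0092), Ly6c2 (0.0236), Gm5148 (0.0872), Rpl37 (0.19) and Rps27 (0.11), none of them called there; the cause was not tested. For the genes of the split pattern among these, the small difference in that fit was set by how the pattern was defined. Leaving out 1 knockout sham library also turned Trp53 (range -0.18 to 0.0748, with 0.0033 without replicate 1), Cdkn1a without replicate 4 (-0.391 to 0.475), Acta1 without replicate 3 (-1.42 to 0.38), Id1 without replicate 1 (-0.151 to 0.096) and Cd79a without replicate 3 (-0.0064 to 0.338), none of them called in these fits.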

Other observations

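The called genes given here lie outside the lists and were chosen after their values were seen, so they stand for no group. Of these and the lower genes below, only Mrpl34, Adam19 and Il13ra1 were called in every fit that left out 1 sham library. The histone gene H2bc4 had 45.1, 40.6, 39.5 and 58.3 FPKM in wild type and 59.2, 76.5 and 80.1 in knockout (0.64 ± 0.13, limma adjusted p = 0.0223), a gap narrower than the spread within either genotype. Mrpl34, of the large mitochondrial ribosomal subunit, had 73.9, 75.1, 69.4 and 83.8 FPKM in wild type and 119, 116 and 144 in knockout (0.73 ± 0.12). Tufm, a mitochondrial elongation factor gene, rose by 0.34. None of these 3 genes was called after TAC. Ucp2, an uncoupling protein of the mitochondrial inner membrane, had 30.9, 43.6, 38.2 and 44.5 FPKM in wild-type sham and 58.8, 62.4 and 54.9 in knockout sham (0.58 ± 0.10) and rose after TAC too (0.68 ± 0.08).

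Among lower genes, chosen in the same way, Ackr3, a scavenger receptor for the chemokine CXCL12, had 53.3, 47.4, 50.3 and 42.9 FPKM in wild type and 24.5, 27.5 and 38.4 in knockout (-0.69 ± 0.13, limma adjusted p = 0.013). Heyl, a Notch target of mural cells, fell by 0.56, Cd34, an endothelial and progenitor surface protein, by 0.41, and Lmo2, a cofactor of endothelial and blood transcription, by 0.53. Adam19, a membrane protease, and Il13ra1, a receptor chain for interleukins 4 and 13, fell by 0.88 and 0.54 in sham, with TAC differences of 0.11 and -0.07. None of these lower genes was called after TAC, and the interaction was called for Adam19 (0.99) and Il13ra1 (0.46). Of 12 endothelial markers 0 were called and 0 had an unadjusted p under 0.05, with a median of -0.06.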
